A study of Mus musculus with 24 samples.

Results

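The 10 genes described here encode the calcineurin phosphatase, its inhibitors and the nuclear factor of activated T cells (NFAT) transcription factors, and they were taken by symbol from the 14912 genes of the table. They are the inhibitors *Rcan1*, *Rcan2* and *Cabin1*, the catalytic subunits *Ppp3ca* and *Ppp3cb*, the regulatory subunit *Ppp3r1*, and *Nfatc1*, *Nfatc2*, *Nfatc3* and *Nfatc4*. All 10 symbols were found, and all 10 genes passed the filter on low values. RNA was measured in whole left ventricles. Angiotensin II (ANG II) raises blood pressure. The ANG II group was 12 mice that received the peptide at 1500 ng/kg/min over 7 days from subcutaneous mini-pumps, and the control group was 12 mice that received saline. All were wild-type male C57BL/6J mice, and their age is not given in the sources used here. ANG II at this dose is a model of hypertensive left ventricular hypertrophy (LVH). The tissue was a mixture of cell types, so that fewer cells of a type and less RNA per cell cannot be told apart.

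Calcineurin is activated by calcium and calmodulin and removes phosphate groups from the cytoplasmic NFAT proteins, which then move into the nucleus. In cardiomyocytes this route is known to drive hypertrophic growth, and NFAT activity is known to raise the transcription of *Rcan1*, whose protein binds and restrains calcineurin. These steps act on proteins, and a transcript level does not measure phosphatase activity or the location of NFAT.

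Values are in FPKM, in which the fragments of a gene are divided by transcript length and by the yield of the library, so that levels can be compared between genes. The deposited FPKM had been adjusted gene by gene in 4 sets of 3 ANG II and 3 control samples (those numbered 1 to 3, 4 to 6, 7 to 9 and 10 to 12), and 2741 values of other genes were negative. None of the values of the 10 genes was negative (0 values). The adjustment also brought the means of the sets close together. For *Rcan1* the mean of the 6 samples of a set lay between 93.4 and 97.1 FPKM, so that within a set a high mean of one group goes with a low mean of the other. The ANG II minus control difference within each set before the adjustment was recovered from the spacing of the values for all 10 genes, and the level of a set was not. Samples 4 to 6 stood apart: the median log2 fold change over all genes tested was 0.18 there, against -0.0072, -0.022 and 0.026 in the other sets. Log2 fold changes within samples 4 to 6 include that shift, and those printed are also given relative to it. The sums of the values were 460715 to 515185 in ANG II samples and 482319 to 567727 in control samples, and the read depth per sample is not given in the sources used here. The numbering of the samples carries no labelled batch.

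Of the 10 genes, 3 were higher after ANG II at an adjusted p under 0.05 (*Rcan1*, *Nfatc1* and *Nfatc4*), beside 20.9% of the 14026 genes tested by limma. None was lower at an adjusted p under 0.05 (0 of 10 in limma, and also 0 at an unadjusted p under 0.05), beside 12.6% of all genes. *Nfatc4* alone also passed an absolute log2 fold change of 0.5, as did 4.52% of all genes in the upward direction. Without samples 4 to 6 of each group, 2 of the 10 genes were higher, *Rcan1* and *Nfatc1*, beside 1177 of 14004 genes tested.

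**Figure D1:**
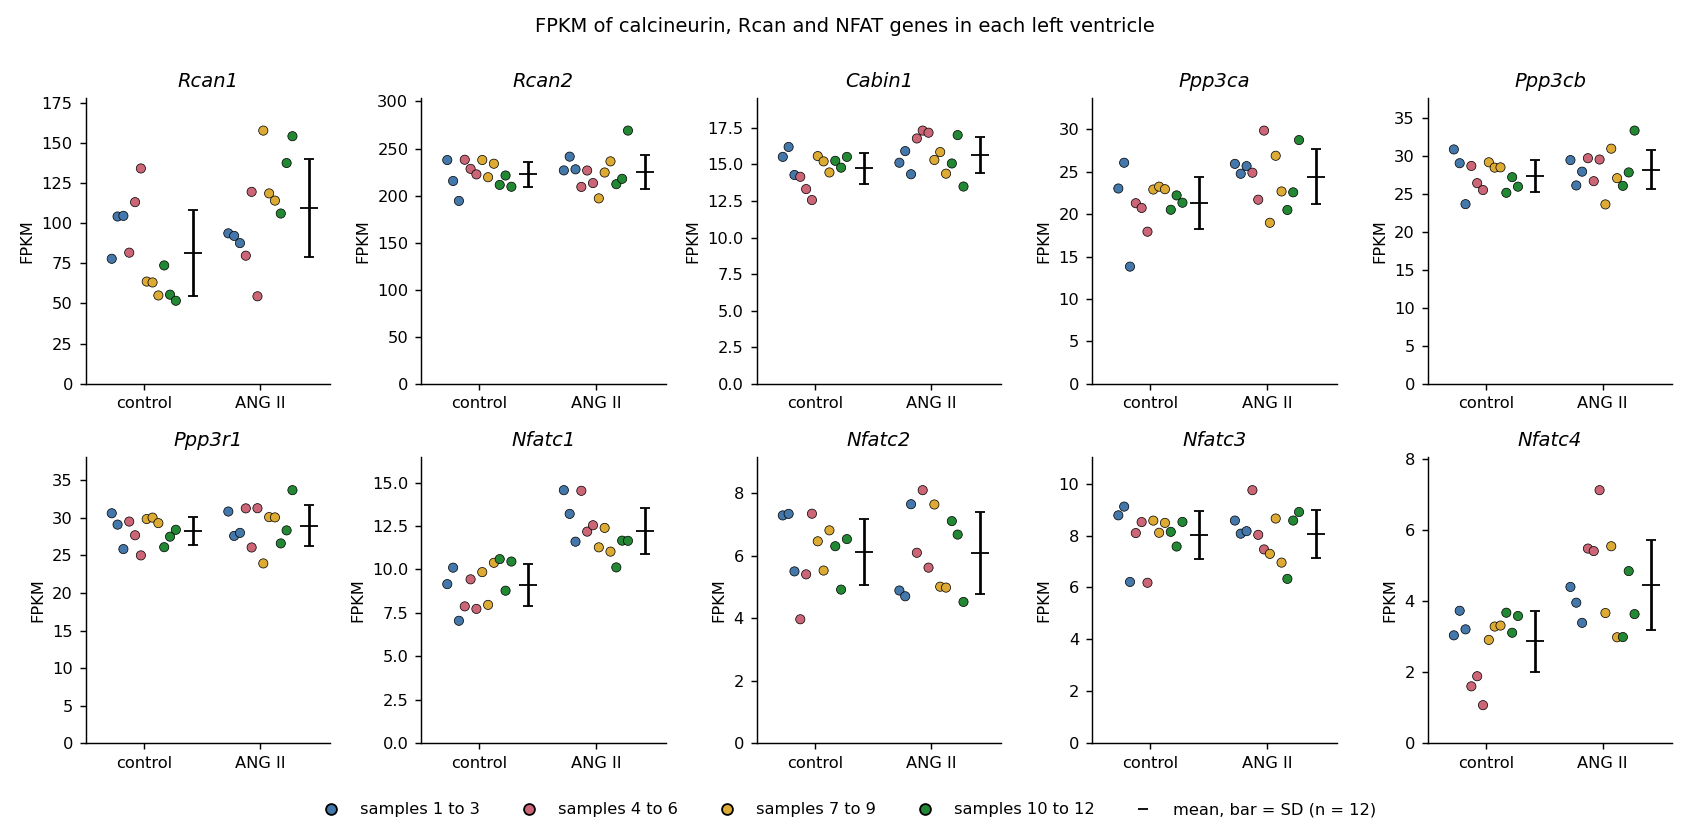
FPKM (vertical axes, starting at 0) of each of the 10 genes in each left ventricle, control beside ANG II. Points are single mice colored by set of samples, and bars are the mean and SD of 12 mice. In *Nfatc1*, 11 ANG II points lie above every control point, while the groups overlap more widely in the other genes. In *Rcan1*, 3 ANG II points lie above every control point. Its ANG II points of samples 7 to 9 and 10 to 12 lie above the control points of their own set.

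*Rcan1* (regulator of calcineurin 1) ranged from 51.7 to 134 FPKM (median 75.8) in control samples and from 54.5 to 158 FPKM (median 110.1) in ANG II samples. The groups overlapped, with 3 ANG II samples above the highest control sample and 11 above the control median. The mean was 109.6 ± 30.6 FPKM (SD, n = 12) after ANG II and 81.5 ± 26.7 FPKM (SD, n = 12) in control, and the log2 fold change was 0.43 ± 0.17 (standard error, limma adjusted p = 0.0489). A two-sided permutation test of the difference gave p = 0.0256, and exchanging labels only within the sets gave p = 0.0385 (exact permutation test). The difference was therefore close to the spread between mice, and it rested on part of the samples.

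In samples 7 to 9, *Rcan1* was 158, 119 and 114 FPKM after ANG II and 63.7, 63.1 and 55.0 FPKM in control. In samples 10 to 12 it was 106, 138 and 154 FPKM after ANG II and 73.7, 55.5 and 51.7 FPKM in control. In both sets all 3 ANG II samples lay above all 3 control samples, which was so for 10.2% of all genes in samples 7 to 9 and for 10% in samples 10 to 12. The means were 2.15 and 2.20 times those of control, and the log2 fold changes of 1.08 ± 0.23 and 1.12 ± 0.23 (standard error) had limma adjusted p of 0.00647 and 0.0109. In these sets 4.03% and 1.14% of all genes were higher at an adjusted p under 0.05. In samples 1 to 3 the values were 93.7, 92.1 and 87.6 FPKM after ANG II and 77.9, 104 and 105 FPKM in control. In samples 4 to 6 they were 79.8, 119.6 and 54.5 FPKM after ANG II and 81.7, 113 and 134 FPKM in control. The groups overlapped in both of these sets, and the log2 fold changes were -0.055 (limma adjusted p = 0.951) and -0.41 (limma adjusted p = 0.167), the latter -0.59 relative to the median of all genes.

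The difference of *Rcan1* between ANG II and control thus varied between the sets (limma F test of the interaction, adjusted p = 0.00586), as it did for 7.49% of all genes. Without samples 4 to 6 this test gave an unadjusted p of 1.27e-04 and an adjusted p of 0.170, and 3 of 14004 genes passed. Before the adjustment, the ANG II minus control differences of *Rcan1* were -5.03, -42.9, 57.3 and 73.1 FPKM in the 4 sets. Their mean was 20.6 FPKM (exact permutation test within the sets, p = 0.159), and 41.8 FPKM without samples 4 to 6 (exact permutation test, p = 0.00375). The overall limma call was lost without samples 7 to 9 (log2 fold change 0.22, adjusted p = 0.405) and without samples 10 to 12 (0.20, adjusted p = 0.436). It was stronger without samples 4 to 6 (0.72, adjusted p = 0.00265). When single mice were left out, the limma adjusted p ran from 0.0145 to 0.0847, and it stayed under 0.05 only without ANG II sample 2, 3, 4 or 6 or without control sample 2, 3, 5 or 6. Quantile normalization (0.42, limma adjusted p = 0.0541) and median-ratio scaling (0.40, limma adjusted p = 0.0877) also took it over 0.05.

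**Figure D2:**
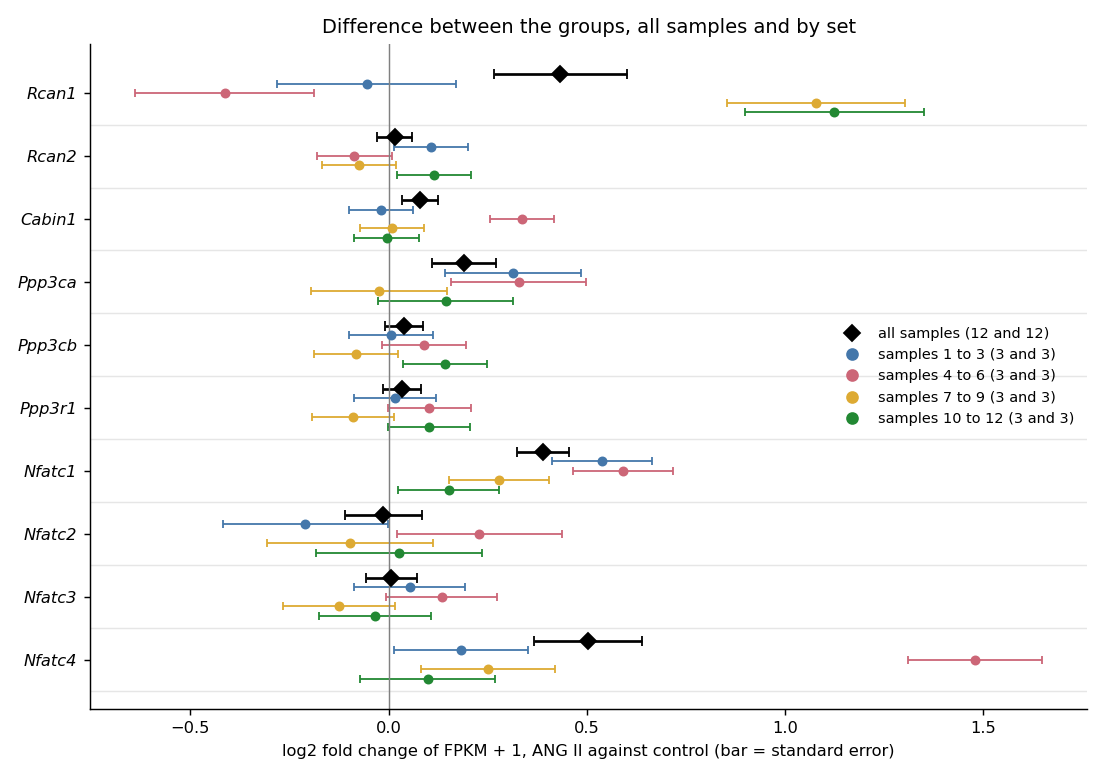
Log2 fold change of FPKM + 1, ANG II against control (horizontal axis), for each of the 10 genes, with all 24 samples (diamonds) and within each set of 3 and 3 samples (circles). Bars are standard errors from limma. The sets of *Rcan1* lie on both sides of 0, from -0.41 to 1.12, and in *Nfatc4* samples 4 to 6 lie at 1.48 while the other sets lie between 0.099 and 0.25.

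*Rcan1* has 5 protein-coding transcripts in GENCODE vM21, on the minus strand of chromosome 16, and 1 gene-level value sums them. A longer isoform starts at an upstream promoter and a shorter one at an internal promoter, and the internal promoter is known for its response to NFAT. The 250 bases before its RefSeq starts (GRCm38.p6) are shown because *Rcan1* passed the test over all samples. Its FPKM cannot be divided between the starts. Capitals mark the NFAT core GGAAA or its reverse complement TTTCC.
Rcan1 upstream start, chr16:92466170-92466419, minus strand: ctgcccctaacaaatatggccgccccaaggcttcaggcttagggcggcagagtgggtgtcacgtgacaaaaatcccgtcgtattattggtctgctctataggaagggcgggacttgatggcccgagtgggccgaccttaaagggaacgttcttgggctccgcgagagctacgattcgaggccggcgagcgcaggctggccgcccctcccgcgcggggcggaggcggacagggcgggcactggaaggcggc
Rcan1 internal start, chr16:92400079-92400328, minus strand: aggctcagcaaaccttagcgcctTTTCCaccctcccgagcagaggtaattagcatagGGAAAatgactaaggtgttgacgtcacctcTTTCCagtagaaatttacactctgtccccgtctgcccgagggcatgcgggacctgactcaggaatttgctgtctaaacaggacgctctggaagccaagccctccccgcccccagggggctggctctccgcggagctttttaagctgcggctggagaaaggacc
The upstream window held 0 cores and the internal window held 3, and neither overlapped an annotated exon of the gene. The upstream window lay within 1 annotated transcript of the gene and the internal window within 4. An annotated start further upstream is thus not shown. Among all 32851 windows of this length 55.6% held at least 1 core and 6.39% held 3 or more. A match of so short a motif is a description of the letters.

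*Rcan2*, the related inhibitor with a high level in heart, was the most abundant of the 10 transcripts. It ranged from 194 to 238 FPKM in control samples and from 197 to 269 FPKM in ANG II samples, with means of 222 ± 13.6 and 225 ± 18.4 FPKM (SD, n = 12 each). The groups overlapped almost entirely, and the log2 fold change was 0.015 ± 0.044 (standard error, limma adjusted p = 0.807). Its differences in the sets before the adjustment had both signs, from -10.3 to 24.5 FPKM. In the log2 ratio of *Rcan1* to *Rcan2* (FPKM + 1 of each), a scaling shared by a whole sample nearly cancels. The adjustment made gene by gene does not cancel, and the ratio before it was not computed. As deposited, the ratio was -1.08 ± 0.42 after ANG II and -1.50 ± 0.47 in control (SD, n = 12 each). The difference of 0.42 had p = 0.0333 in a two-sided permutation test, and 11 of 12 ANG II samples lay above the control median. It was -0.16, -0.33, 1.15 and 1.01 in the 4 sets. Leaving out ANG II sample 7, 11 or 12 or control sample 7, 8, 9, 11 or 12 took p over 0.05, up to 0.0621 in a permutation test, and all of these 8 are in the sets where *Rcan1* was higher.

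*Cabin1*, which encodes a calcineurin-binding protein that also represses MEF2 factors, ranged from 12.6 to 16.2 FPKM in control samples and from 13.5 to 17.3 FPKM in ANG II samples. The means were 14.7 ± 1.04 and 15.6 ± 1.25 FPKM (SD, n = 12 each), and the log2 fold change of 0.080 ± 0.045 did not pass (standard error, limma adjusted p = 0.169). In samples 4 to 6 it was 16.8, 17.3 and 17.2 FPKM after ANG II and 14.2, 13.3 and 12.6 FPKM in control, so that the groups did not overlap there (38.5% of all genes in that set). The log2 fold change in that set was 0.34 (limma adjusted p = 0.00393, beside 26.5% of all genes higher in that set), or 0.16 relative to the median of all genes, while it was between -0.018 and 0.0083 in the other sets. Before the adjustment its differences in the 4 sets were -0.48, 3.40, 0.97 and 0.34 FPKM, and all 3 ANG II samples were then above all 3 control samples in samples 7 to 9 as well. Their mean was 1.06 FPKM (exact permutation test within the sets, p = 0.0303), and 0.28 FPKM without samples 4 to 6 (exact permutation test, p = 0.514). The test of a difference between sets did not pass for *Cabin1* (limma F test, adjusted p = 0.107), and without samples 4 to 6 the log2 fold change was -0.0050 (limma adjusted p = 0.951).

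Of the calcineurin subunits, *Ppp3ca*, which encodes the alpha isoform of the catalytic subunit, ranged from 13.8 to 26.1 FPKM (median 21.8) in control samples and from 19.0 to 29.9 FPKM (median 24.8) in ANG II samples. The groups overlapped, with 3 ANG II samples above the highest control sample. The means were 21.3 ± 3.07 and 24.4 ± 3.27 FPKM (SD, n = 12 each), and the log2 fold change of 0.19 ± 0.081 (standard error) did not pass over all genes (limma adjusted p = 0.0694). Taken alone, the difference had p = 0.0263 in a two-sided permutation test, and its value within the sets before the adjustment was 3.37 FPKM (exact permutation test, p = 0.0346), or 2.70 FPKM without samples 4 to 6 (exact permutation test, p = 0.210). Before the adjustment the differences in the 4 sets were 4.57, 5.40, 0.73 and 2.79 FPKM. The lowest control value, 13.8 FPKM, was that of control sample 3, beside 23.0 and 26.1 FPKM in the other control samples of its set. The limma adjusted p fell under 0.05 without ANG II sample 7 (0.0322), ANG II sample 10 (0.0457) or control sample 2 (0.0362), and without samples 7 to 9 of each group (0.0471).

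*Ppp3cb*, the beta catalytic isoform, differed by less than the spread between mice, with 27.4 ± 2.08 FPKM in control and 28.2 ± 2.59 FPKM after ANG II (SD, n = 12 each, log2 fold change 0.039 ± 0.049 standard error, limma adjusted p = 0.560). *Ppp3r1*, which encodes the calcium-binding regulatory subunit, was at 28.2 ± 1.82 FPKM in control and 29.0 ± 2.72 FPKM after ANG II (SD, n = 12 each, log2 fold change 0.033 ± 0.048 standard error, limma adjusted p = 0.616). Both genes overlapped widely between the groups. The log2 ratio of *Ppp3ca* to *Ppp3cb* was -0.36 ± 0.15 in control and -0.21 ± 0.10 after ANG II (SD, n = 12 each), so *Ppp3cb* was the more abundant transcript of the pair on average in both groups. The ratio was higher after ANG II by 0.15 (two-sided permutation test, p = 0.00362), with 11 of 12 ANG II samples above the control median. It was higher by 0.31 and 0.24 in samples 1 to 3 and 4 to 6, and by 0.058 and 6.90e-04 in samples 7 to 9 and 10 to 12. Without samples 4 to 6 the difference was 0.12 (permutation test, p = 0.040). The adjustment made gene by gene does not cancel in this ratio either.

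Among the NFAT factors, *Nfatc1*, known for its role in endocardial cells and heart valves and in lymphocytes, gave the smallest p of the 10 genes. It ranged from 7.05 to 10.6 FPKM (median 9.30) in control samples and from 10.1 to 14.6 FPKM (median 11.9) in ANG II samples. ANG II sample 10 was the only one within the control range, and all 12 lay above the control median. The means were 9.11 ± 1.22 and 12.2 ± 1.34 FPKM (SD, n = 12 each), a ratio of 1.34, and the log2 fold change was 0.39 ± 0.066 (standard error, limma adjusted p = 1.05e-04). The permutation test gave p = 2e-05 (two-sided, the smallest that 100000 resamples can give). All 3 ANG II samples lay above all 3 control samples in samples 1 to 3, 4 to 6 and 7 to 9. In these sets in turn, that was so for 6.97%, 38.5% and 10.2% of all genes. The differences before the adjustment were 4.99, 4.79, 2.50 and 1.20 FPKM in the 4 sets. Their mean of 3.37 FPKM had p = 3.75e-05 (exact permutation test within the sets), and it was 2.90 FPKM without samples 4 to 6 (exact permutation test, p = 7.5e-04). The test of a difference between sets did not pass (limma F test, adjusted p = 0.241). Under each alternative tried, the limma adjusted p of *Nfatc1* stayed between 5.85e-05 and 0.0056. The endothelial markers were mixed. Beside 20.9% of all genes higher and 12.6% lower, 1 of 6 was higher (*Pecam1*, log2 fold change 0.37, limma adjusted p = 7.77e-04) and 1 of 6 lower (*Kdr*, log2 fold change -0.23, limma adjusted p = 0.0309). The summed FPKM of the 6 overlapped, from 347 to 447 in control samples and from 319 to 520 in ANG II samples. The part of these markers in the result of *Nfatc1* was not tested.

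*Nfatc4*, a family member known from calcineurin signaling in cardiac hypertrophy, was the least abundant of the 10 transcripts in control. It ranged from 1.07 to 3.73 FPKM (median 3.16) in control samples and from 2.99 to 7.13 FPKM (median 4.18) in ANG II samples. The groups overlapped, with 7 ANG II samples above the highest control sample and 10 above the control median. The means were 2.87 ± 0.87 and 4.46 ± 1.26 FPKM (SD, n = 12 each), a ratio of 1.55, and the log2 fold change was 0.50 ± 0.14 (standard error, limma adjusted p = 0.00690). The permutation test gave p = 7.80e-04 (two-sided). This value rested largely on samples 4 to 6, where *Nfatc4* was 5.48, 5.41 and 7.13 FPKM after ANG II and 1.60, 1.89 and 1.07 FPKM in control. The log2 fold change was 1.48 ± 0.17 there (standard error, limma adjusted p = 4.00e-06, beside 26.5% of all genes higher in that set), or 1.30 relative to the median of all genes, and 0.18, 0.25 and 0.099 in the other sets. The differences before the adjustment were 0.38, 5.08, 1.28 and 0.42 FPKM, all above 0. *Nfatc1* and *Nfatc4* were the 2 of the 10 genes with a higher mean after ANG II in all 4 sets as deposited, which was so for 21.9% of all genes.

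The difference of *Nfatc4* varied between the sets (limma F test, adjusted p = 0.00236). Without samples 4 to 6 the overall log2 fold change was 0.18 (limma adjusted p = 0.156), and the mean difference before the adjustment was 0.69 FPKM (exact permutation test within the sets, p = 0.0293) against 1.79 FPKM with all sets (exact permutation test, p = 0.00146). The log2 fold change fell under 0.5, and with it the second criterion was missed, without ANG II sample 4, 5, 6, 8 or 11 and without control sample 4, 5 or 6 (lowest 0.42, without control sample 6), while the limma adjusted p stayed at or under 0.0139. Markers of fibroblasts moved with it: 3 of 6 were higher over all samples, beside 20.9% of all genes. Their summed FPKM in samples 4 to 6 averaged 1342 after ANG II and 188 in control, against 753 to 846 and 582 to 646 in the other sets. Their range was 506 to 1685 in ANG II samples and 129 to 701 in control samples, and 0 of the 6 had a mean under 0.1 FPKM. The summed FPKM of the atrial markers *Myl7*, *Sln* and *Myl4* averaged 885 after ANG II and 16.9 in control in samples 4 to 6, and 208 and 1051 in samples 1 to 3. Other marker sums also stood apart in samples 4 to 6, after ANG II and in control, with 398 and 142 for macrophages, 422 and 258 for smooth muscle cells and pericytes, 3.82 and 1.48 for T cells and 33585 and 50394 for cardiomyocytes. Negative values counted as 0 in these sums, and the lowest atrial sum was 0 in both groups. Within a set the adjustment puts a high mean of one group beside a low mean of the other. The size of these marker contrasts therefore depends on the adjustment. The part of these markers in the result was not tested.

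The window before the RefSeq start of *Nfatc4* is shown because this gene also passed the test over all samples, with the same marking. No window was found for *Nfatc1*.
Nfatc4, chr14:55824545-55824794, plus strand: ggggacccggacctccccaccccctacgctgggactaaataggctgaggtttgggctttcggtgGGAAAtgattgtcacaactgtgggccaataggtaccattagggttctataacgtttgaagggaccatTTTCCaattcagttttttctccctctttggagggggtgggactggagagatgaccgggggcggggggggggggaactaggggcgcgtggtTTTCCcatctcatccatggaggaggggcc
This window held 3 cores and overlapped no annotated exon of the gene. It lay within 1 annotated transcript that starts further upstream, and no window of that start is shown. In all, 7 of the 13 windows found for 8 of the 10 genes held a core, and 3 cores were also found in a window of *Ppp3cb* and of *Nfatc2*, both of which did not pass the test.

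*Nfatc2*, which is widely studied in T cells, was at 6.11 ± 1.06 FPKM in control and 6.07 ± 1.30 FPKM after ANG II (SD, n = 12 each). The log2 fold change was -0.013 ± 0.098 (standard error, limma adjusted p = 0.929). *Nfatc3*, which is known to act downstream of calcineurin in cardiomyocytes, was at 8.03 ± 0.94 FPKM in control and 8.06 ± 0.93 FPKM after ANG II (SD, n = 12 each, log2 fold change 0.0068 ± 0.065 standard error, limma adjusted p = 0.945). The ranges of both genes overlapped almost entirely, and their differences in the sets had both signs before the adjustment, from -1.54 to 1.10 FPKM for *Nfatc2* and from -0.35 to 0.84 FPKM for *Nfatc3*. Markers of T cells were low, with a summed FPKM of 1.33 to 2.61 in control samples and 1.72 to 6.02 in ANG II samples over 5 genes, of which *Cd3g* was higher (log2 fold change 0.26, limma adjusted p = 0.0213).

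**Figure D3:**
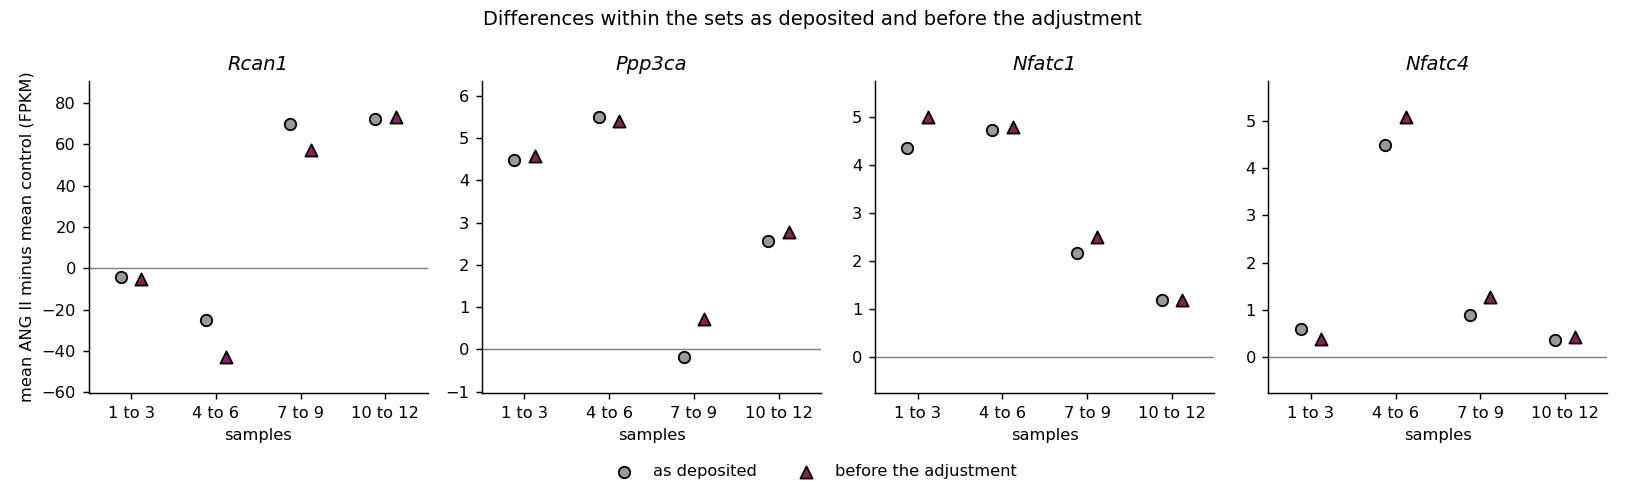
Mean ANG II minus mean control FPKM (vertical axes, scaled per gene) within each set of samples, as deposited (circles) and before the adjustment (triangles), for *Rcan1*, *Ppp3ca*, *Nfatc1* and *Nfatc4*. Each point compares 3 with 3 samples. *Nfatc1* and *Nfatc4* lie above 0 in all sets, *Rcan1* lies below 0 in samples 1 to 3 and 4 to 6, and the sign of *Ppp3ca* in samples 7 to 9 is the one that the adjustment turned.

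In 39 of 40 combinations of a gene and a set, the difference had the same direction before and after it, the exception being *Ppp3ca* in samples 7 to 9 (-0.18 FPKM as deposited, 0.73 FPKM before). For *Rcan1*, the set with samples 4 to 6 changed from -42.9 to -25.0 FPKM and the set with samples 7 to 9 from 57.3 to 69.6 FPKM.

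The order of the levels in control samples was *Rcan2*, *Rcan1*, *Ppp3r1*, *Ppp3cb*, *Ppp3ca*, *Cabin1*, *Nfatc1*, *Nfatc3*, *Nfatc2* and *Nfatc4*, from 222 to 2.87 FPKM. Among neighbors in this order, the ranges over 12 control samples were apart between *Rcan2* and *Rcan1*, *Rcan1* and *Ppp3r1*, *Cabin1* and *Nfatc1*, and *Nfatc2* and *Nfatc4*. The ranges of the other neighbors overlapped, such as those of *Ppp3r1* and *Ppp3cb*, where *Ppp3r1* was higher in 10 of 12 samples of each group. After ANG II the ranges of *Nfatc2* and *Nfatc4* and those of *Cabin1* and *Nfatc1* overlapped, and those of *Nfatc1* and *Nfatc3* and of *Ppp3ca* and *Cabin1* were apart. Thus *Rcan1* and *Rcan2* were above each of the 3 calcineurin subunits in FPKM, and each of these subunits was above each NFAT factor in its mean. Because the adjustment brought the means of the sets close together, the ranges above do not show how far levels differed between sets before it.

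Within groups and sets, the transcripts of the phosphatase subunits followed each other most closely. After the mean of each group in each set was removed, the Pearson r of log2(FPKM + 1) over the 24 samples was 0.897 between *Ppp3cb* and *Ppp3r1*, 0.879 between *Ppp3ca* and *Ppp3cb* and 0.787 between *Ppp3ca* and *Ppp3r1*. *Nfatc1* and *Nfatc3* had an r of 0.771, while *Rcan1* had -0.497 with *Ppp3r1* and -0.0747 with *Rcan2*. Among the other 11448 genes with a mean of at least 1 FPKM, those most like *Rcan1* were *Fam43a* (r 0.852, Spearman rho 0.874), *Ddx54* (0.822, 0.877), *Npas2* (0.812, 0.737), *Gcc1* (0.785, 0.783) and *Tecpr1* (0.784, 0.702). Those most like *Nfatc2* were *Tdp1* (r 0.810), *Mboat7* (0.803), *Ipo4* (0.783), *Sars* (0.765) and *Tex261* (0.765). These are descriptions over 24 samples that share the libraries, the scaling and the adjustment of their set. Removing the means leaves fewer than 24 free values, and the genes named were picked as the highest r among 11448. The r values were not tested.

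Other genes of the pathway moved in both directions. Of 66 tested outside the 10, 8 were higher and 6 lower (adjusted p under 0.05 in limma, beside 20.9% and 12.6% of all genes). With quantile normalization, under which the median over all genes went from 0.055 to -0.015 (log2), the counts were 6 higher and 14 lower. In that setting 1928 of all 14039 genes tested were higher and 2921 lower. Without samples 4 to 6 the pathway counts were 4 higher and 5 lower, beside 1177 and 1633 of 14004 genes. Upstream, 1 of 19 genes was higher and 2 were lower. *Agtr1a*, the main receptor of ANG II in the mouse heart, was lower (log2 fold change -0.30, limma adjusted p = 0.00301), from 24.8 to 22.0, 25.5 to 20.5, 27.3 to 19.1 and 25.1 to 21.2 mean FPKM in the 4 sets. *Gna11*, which encodes a G protein of that receptor, was lower by a smaller amount (log2 fold change -0.11, limma adjusted p = 0.0484). *Ednra*, the endothelin A receptor, was higher (0.49, limma adjusted p = 0.00502) in 3 of the 4 sets and had a difference of -3.43 FPKM in samples 10 to 12.

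None of the other subunit and calmodulin genes tested passed (0 of 4 in limma, and 1 at an unadjusted p under 0.05, *Calm2* with p = 0.0441). Of 11 other inhibitors and anchors, *Cib1*, whose protein anchors calcineurin at the membrane of cardiomyocytes, was higher (log2 fold change 0.35, limma adjusted p = 0.00865), as was *Chp1*, a calcineurin homologous protein (0.12, limma adjusted p = 0.00232). *Akap1*, a mitochondrial anchoring protein, was lower (-0.25, limma adjusted p = 0.00943). *Myoz3* was under the filter, and *Ppp3r2*, *Agtr1b*, *Il2*, *Ifng* and *Cd40lg* were not analysed here. Of 12 kinases that phosphorylate NFAT, the casein kinases *Csnk1a1* (0.20, limma adjusted p = 0.0254) and *Csnk1d* (0.13, limma adjusted p = 0.0394) were higher. The p38 kinase *Mapk14* (-0.23, limma adjusted p = 7.59e-04) and *Gsk3a* (-0.10, limma adjusted p = 0.0412) were lower. Of 14 nuclear partners and the related factor *Nfat5*, only *Mef2d* passed, and it was lower (-0.12, limma adjusted p = 0.0398).

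**Figure D4:**
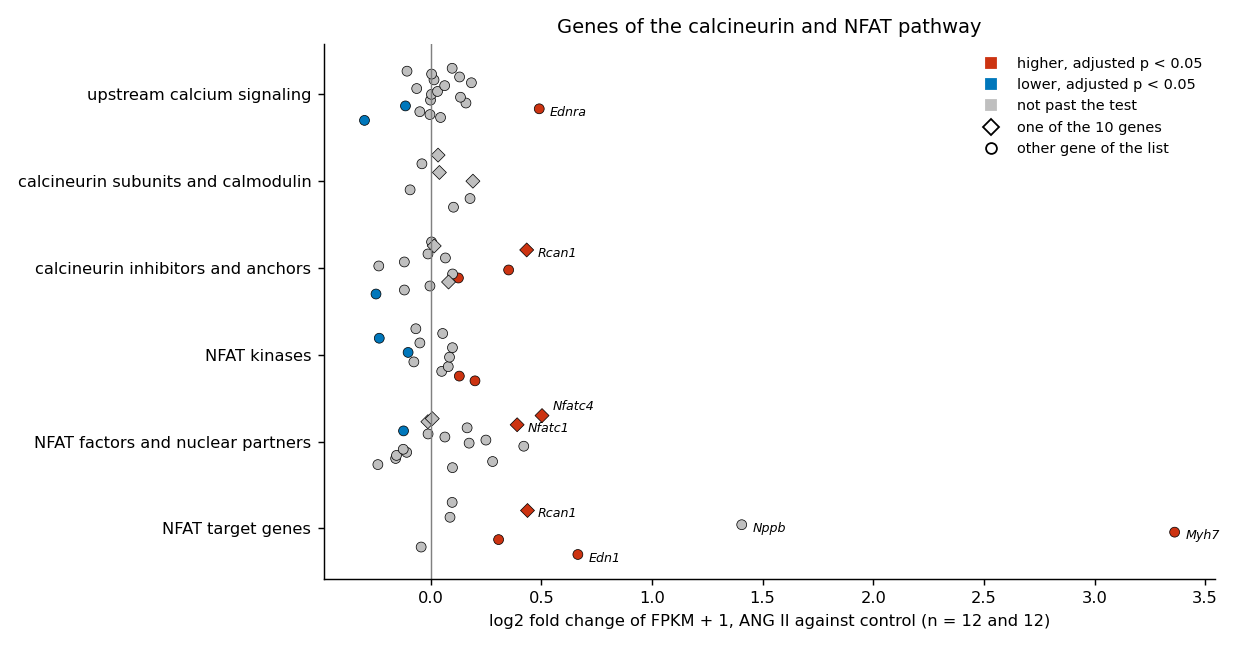
Log2 fold change of FPKM + 1, ANG II against control with 12 samples each (horizontal axis), of the genes tested in 6 lists of the pathway (rows). Diamonds are the 10 genes, circles the others, and color marks the direction at an adjusted p under 0.05. Most points lie within 0.25 of 0, *Rcan1* appears in both lists that hold it, and *Myh7* lies at 3.36.

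Of 7 known NFAT targets besides *Rcan1*, 3 were higher and 0 lower in limma, beside 20.9% and 12.6% of all genes. At an unadjusted p under 0.05 in limma, 0 of the 7 were lower. The median log2 fold change of the 7 was 0.31 beside 0.055 over all genes tested. *Myh7*, the fetal myosin heavy chain, had a log2 fold change of 3.36 (limma adjusted p = 0.00464), and its ANG II minus control difference before the adjustment was 210, 625, 327 and 230 FPKM in the 4 sets. Its mean in control samples 4 to 6 was -49.0 FPKM as deposited, so that the size of its fold change depends on the adjustment. *Edn1*, which encodes endothelin-1, was higher (0.66, limma adjusted p = 1.99e-04), as was *Il6* (0.31, limma adjusted p = 0.0323). The level of *Il6* was low, with means of 0.52 FPKM after ANG II and 0.21 FPKM in control. Only *Edn1* and *Myh7* of these 3 had a difference above 0 in all 4 sets before the adjustment. Among the markers, 7 of 7 of macrophages and 5 of 5 of red blood cells were higher (20.9% of all genes). Of the cardiomyocyte markers, 4 of 7 were lower (12.6% of all genes) and 0 higher (also 0 in limma at an unadjusted p under 0.05). The summed FPKM of the cardiomyocyte markers was 30767 to 43952 in ANG II samples and 40691 to 50694 in control samples, so the defining markers of heart muscle were high in each sample. The part of these cell types in the results was not tested.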

How the data were processed

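Poly(A)-selected RNA of 24 left ventricles was sequenced, and the authors deposited 1 table of FPKM per gene symbol. The submitters' processing notes list HISAT, Bowtie2 and RSEM, and versions and genome build are not given in the sources used here. Per the file, 2741 values (0.766%) were negative, and exact ties (215 to 541 genes per pair within a set, 0 between sets) divided the samples into 4 sets adjusted gene by gene. This step is not named in the methods, so the unit was recorded as other and not as plain FPKM. The spacing fits an adjustment that used the groups, which neither limma nor permutation tests of these values take into account. The study used 16 samples per group, of which 12 were analysed here. Each label was read as a separate mouse. The p-values of deposited values measure the spread between these samples after the adjustment.

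With negative values replaced by 0, the 14026 genes averaging at least 0.1 FPKM were tested as log2(FPKM + 1) with limma 3.58.1 (R 4.3.3, intensity trend, Benjamini-Hochberg adjustment over all genes, threshold 0.05). An interaction F test compared the sets. Differences before the adjustment were recovered assuming steps of 0.01 FPKM. Single values were tested by two-sided permutation (100000 resamples) or exactly within sets (160000 relabelings, or 8000 without samples 4 to 6) with scipy 1.17.1 (Python 3.11.15). On data simulated without the adjustment, limma called 198 of 200 genes changed by a log2 of 1 and 11 unchanged genes, among 11458 genes. The interaction test called 195 of 200 genes made to differ between sets and 14 others. The recovery was right for 60 of 60 genes simulated under the form of adjustment that it assumes. These simulations do not show how often limma calls falsely in adjusted values. The depth per sample is not given, so no counting intervals are printed.

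The 10 genes and the gene lists were chosen with earlier results of these data known. Named besides the 10 are the genes of each list past the threshold (up to 4 with the largest increase and 3 with the largest decrease), genes not analysed or under the filter, and the 5 genes most like *Rcan1* and *Nfatc2*. Cell type markers and single-gene remarks on *Calm2*, *Jun* and *Nppb* were added to this rule, the latter after their values were seen. Alternatives were a pseudocount of 0.1, no filter or a mean of at least 1 FPKM, quantile normalization, median-ratio scaling, no trend, a replicate block, a set term, and leaving out samples 4 to 6 or each mouse. Leaving out the other sets was added after seeing the data. Promoter windows are from RefSeq (GRCm38.p6) and exons from GENCODE vM21.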

Additional observations from a re-analysis of the deposited data

Results flagged for a closer look

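The ANG II minus control difference varied between the 4 sets of samples for 2 of the 10 genes, beside 7.49% of all genes tested. For *Rcan1* the interaction had an adjusted p of 0.00586 (limma F test), with differences before the adjustment of -5.03, -42.9, 57.3 and 73.1 FPKM. For *Nfatc4* the adjusted p was 0.00236 (limma F test), with differences of 0.38, 5.08, 1.28 and 0.42 FPKM. Without samples 4 to 6 of each group neither passed (limma adjusted p = 0.170 and 0.976), beside 3 of 14004 genes that did. The unadjusted p was then 1.27e-04 for *Rcan1* and 0.815 for *Nfatc4* (limma F test). Nothing in the labels says how the sets differ.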

How the results depend on the processing

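Over 12 alternatives, and 24 fits that each left out 1 mouse, *Nfatc1* kept its direction and call. The count of the 10 genes that were higher was 1 with the replicate block and 2 or 3 in the other settings (2 to 4 when single mice were left out), and the count lower was 0 in all of them. The same-numbered samples did not deviate together (r of -0.557 to -0.0011 from the group means, 0 of 12 pairs over 0.1, and -0.424 to 0.268 after the means of group and set were removed, 1 of 12 over 0.1), so the block is given only here. With it *Nfatc1* was the 1 gene called, beside 1586 of 14026 genes higher. The count past both criteria was 0 with quantile normalization, median-ratio scaling and the replicate block, 2 without samples 1 to 3, and 0 to 1 without single mice (without samples 4 to 6, and without sample 6 of either group, the 1 was *Rcan1*). Without samples 4 to 6 the pathway count was 4 higher, beside 1177 of 14004 genes tested. Without samples 10 to 12 it was 5 higher, beside 2222 of 14038 genes. The pathway count lower was 14 with quantile normalization, beside 2921 of 14039 genes. It was 3 with the replicate block and 3 with a set term, beside 1238 and 1533 of 14026 genes. Without single mice the pathway count was 6 to 11 higher and 3 to 6 lower. It was 3 lower without ANG II sample 4, 6 or 9 or control sample 6 or 7. The count of genes with an interaction was 0 without samples 4 to 6 (limma, 1 at an unadjusted p under 0.05, *Rcan1*). The Rcan1 to Rcan2 log2 ratio was 0.42 with the replicate block (permutation p = 0.110) and 0.35 to 0.50 without single mice, and the Ppp3ca to Ppp3cb ratio was 0.12 to 0.17. *Nfatc4* missed the threshold with the replicate block (limma adjusted p = 0.0538). *Rcan1* missed it in 8 of 12 settings, among them the replicate block (limma adjusted p = 0.153), no filter (limma adjusted p = 0.0519), no trend (0.0505) and a set term (0.0715). Signs turned for 5 genes that did not pass over all samples. *Rcan2* was at -0.016 with median-ratio scaling, -0.015 without samples 1 to 3 and -0.017 without samples 10 to 12, and *Cabin1* at -0.0050 without samples 4 to 6. *Ppp3r1* was at -0.0037 with quantile normalization. *Nfatc2* was at 0.052 without samples 1 to 3 and 0.015 without samples 7 to 9. *Nfatc3* was at -0.080 with quantile normalization, -0.021 with median-ratio scaling, -0.036 without samples 4 to 6, -0.0086 without samples 1 to 3, and at a difference of -0.0956 FPKM before the adjustment without samples 4 to 6. Without single mice the log2 fold changes ran from -0.0082 to 0.033 for *Rcan2*, from -0.059 to 0.017 for *Nfatc2* and from -0.022 to 0.034 for *Nfatc3*. The causes were not tested. With 3 samples per group in a set, single sets can show only large differences.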

Other observations

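*Nppb*, which encodes B-type natriuretic peptide and is another known NFAT target, did not pass the test over all samples (log2 fold change 1.41, limma adjusted p = 0.110) and was looked at after its values were seen. Its ANG II minus control differences before the adjustment were -53.5, 31.3, 580 and 258 FPKM in samples 1 to 3, 4 to 6, 7 to 9 and 10 to 12, beside -5.03, -42.9, 57.3 and 73.1 FPKM for *Rcan1*. In both genes the large positive differences were those of samples 7 to 9 and 10 to 12. The AP-1 component *Jun*, a nuclear partner of NFAT, had 1.40, 27.1, 2.71 and 4.99 FPKM in the same sets (log2 fold change 0.42 over all samples, limma adjusted p = 0.0578), beside 0.38, 5.08, 1.28 and 0.42 FPKM for *Nfatc4*. *Jun* was also looked at after its values were seen. In samples 4 to 6, 26.5% of all genes were higher at an adjusted p under 0.05 (limma). *Edn1* and *Myh7* also had their largest difference before the adjustment in that set. The likeness of these patterns was not tested.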
